A study of Mus musculus with 4 samples.

Results

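The transcriptome of the heart was compared between sedentary mice with and without a tumor, E(−)T(+) vs. E(−)T(−), where E stands for exercise and T for tumor injection. Both hearts came from male mice of the CDF1 strain, whose labels give an age of postnatal day 28. This matches the age at which the study purchased its mice. By its methods, tissues were taken later, at the end of the experiment. The E(−)T(+) group received CT26 cells, a murine colorectal carcinoma line, by injection into the tail vein and was kept without exercise. The E(−)T(−) group was healthy and was likewise kept without exercise. The study formed groups of several mice, but 1 heart library was deposited per group, and nothing in the sources used here ties a heart library to more than 1 animal. Hearts of exercised mice with a tumor, E(+)T(+), and without, E(+)T(−), which had run on a treadmill at high intensity, gave 1 library each and serve as a second pair that shares no library with the first. The comparison was made over genes with at least 16 normalized reads in E(−)T(+) or in E(−)T(−), which kept 12202 of the 23282 genes listed. At the edge of this rule, Arhgap39 and Dnph1 were kept at 16.01 normalized reads, and Gm17762 was left out at 15.99.

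A tumor can act on the heart without growing in it. In cancer cachexia, cytokines, glucocorticoids and loss of food intake drain muscle and fat, and heart muscle also loses mass through the ubiquitin-proteasome system and autophagy. The same cytokines act on the liver and on many other tissues to produce acute phase proteins, and draw neutrophils and monocytes from the bone marrow. The healthy heart burns mainly fatty acids, under control of the nuclear receptor PPARα, and its rhythm depends on sets of ion channels that differ between atrium and ventricle.

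Every value rests on 1 library per group, so that no difference was tested against the spread between animals, and no p-value is given. A gene was called upregulated or downregulated in E(−)T(+) when its normalized value, read as log2(normalized reads + 1), differed by at least 1, a 2-fold change. A log2 difference is followed in parentheses by the 95% Clopper-Pearson interval of the ratio of reads, which covers counting error only. Because 1 is added before taking the logarithm, the difference of a gene with few reads lies closer to 0 than the ratio itself. Where a library held 0 reads of a gene, the fold was computed against a floor of 3 reads in that library and is a lower bound.

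The sedentary libraries held 6595490 reads without and 9532849 with tumor, and the exercised ones 8477116 and 11545897. Globin transcripts, which come from red blood cells, took 8.76% of reads without and 7.86% with tumor in the sedentary pair, against 37.3% in E(+)T(+), which stood apart from the other 3 libraries. The ribosomal RNA precursor Rn45s took 6.12% and 6.02% of the reads of the sedentary pair. The labelled tissue was checked against its markers. All 34 genes of a cardiomyocyte list passed the minimum, and their normalized reads summed to 905748 without and 902055 with tumor in the sedentary pair. In whole tissue, fewer cells of a type and less RNA per cell cannot be told apart.

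With tumor, 1417 of the 12202 genes were upregulated, or 11.6%, and 1358 were downregulated, or 11.1%. The counting interval lay above 0 for 1389 of the upregulated genes and below 0 for 1340 of the downregulated ones. Over all 12202 genes it excluded 0 for 7491. The calls were made on the same reads, so these counts are no separate support for them. At least 4-fold differences were found in 466 genes upward and 322 downward, and at least 16-fold differences in 107 and 37. The median of all 12202 differences was −0.02 and the quartiles were −0.51 and 0.48. When reads were scaled to the library total instead, the median stood at −0.18 and the counts were 1119 up and 1772 down, so that the share of upregulated genes among all calls went from 51.1% to 38.7%. The plot of both libraries against each other shows upregulated genes reaching further from the diagonal than downregulated ones.

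**Figure D1:**
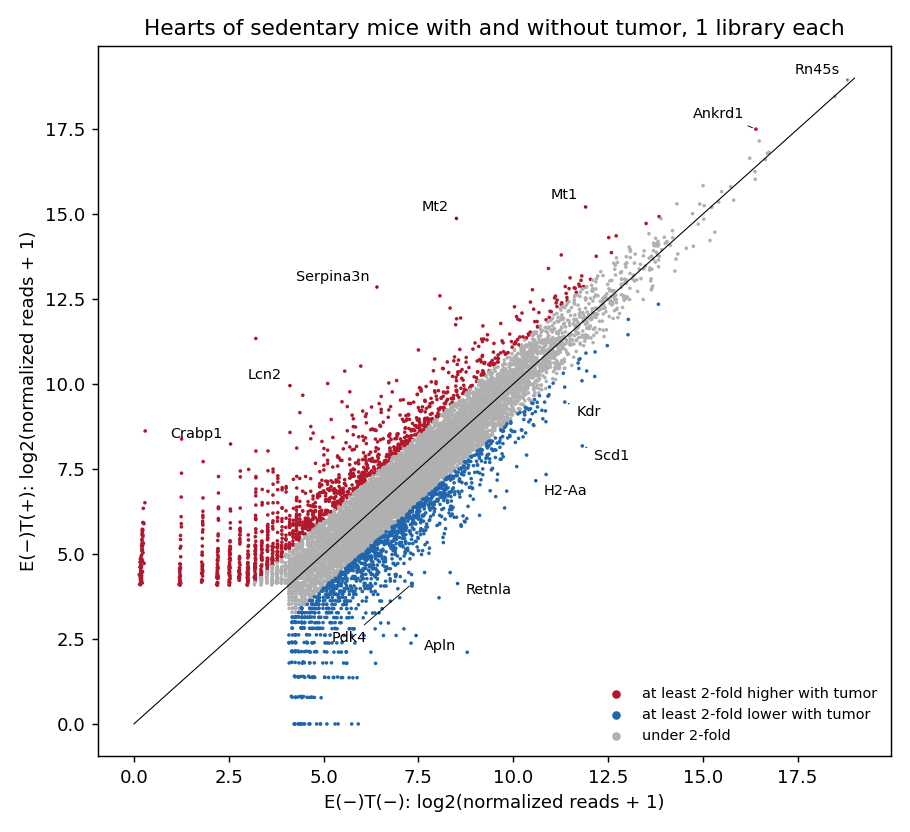
Levels of the 12202 genes in E(−)T(−) (x axis) and E(−)T(+) (y axis), each as log2(normalized reads + 1), 1 point per gene and 1 library per group. Red points, 1417 genes, are at least 2-fold higher with tumor, blue points, 1358 genes, at least 2-fold lower, and the line marks equal values.

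The genes were read in 44 lists of cell markers and pathways, and the plot of all list members orders these by their median. Neutrophil markers and acute phase proteins had the highest medians, 4.09 and 4.03, which came to 1.82 and 2.51 over the members with at least 16 normalized reads in both libraries. MHC class II genes and adipocyte markers had the lowest, −2.75 and −1.81, or −2.75 and −0.88 over such members. Lists of cardiomyocyte structure and of the respiratory chain stayed close to 0. A list's count is to be read against the 11.6% of genes called up and 11.1% called down among all genes.

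**Figure D2:**
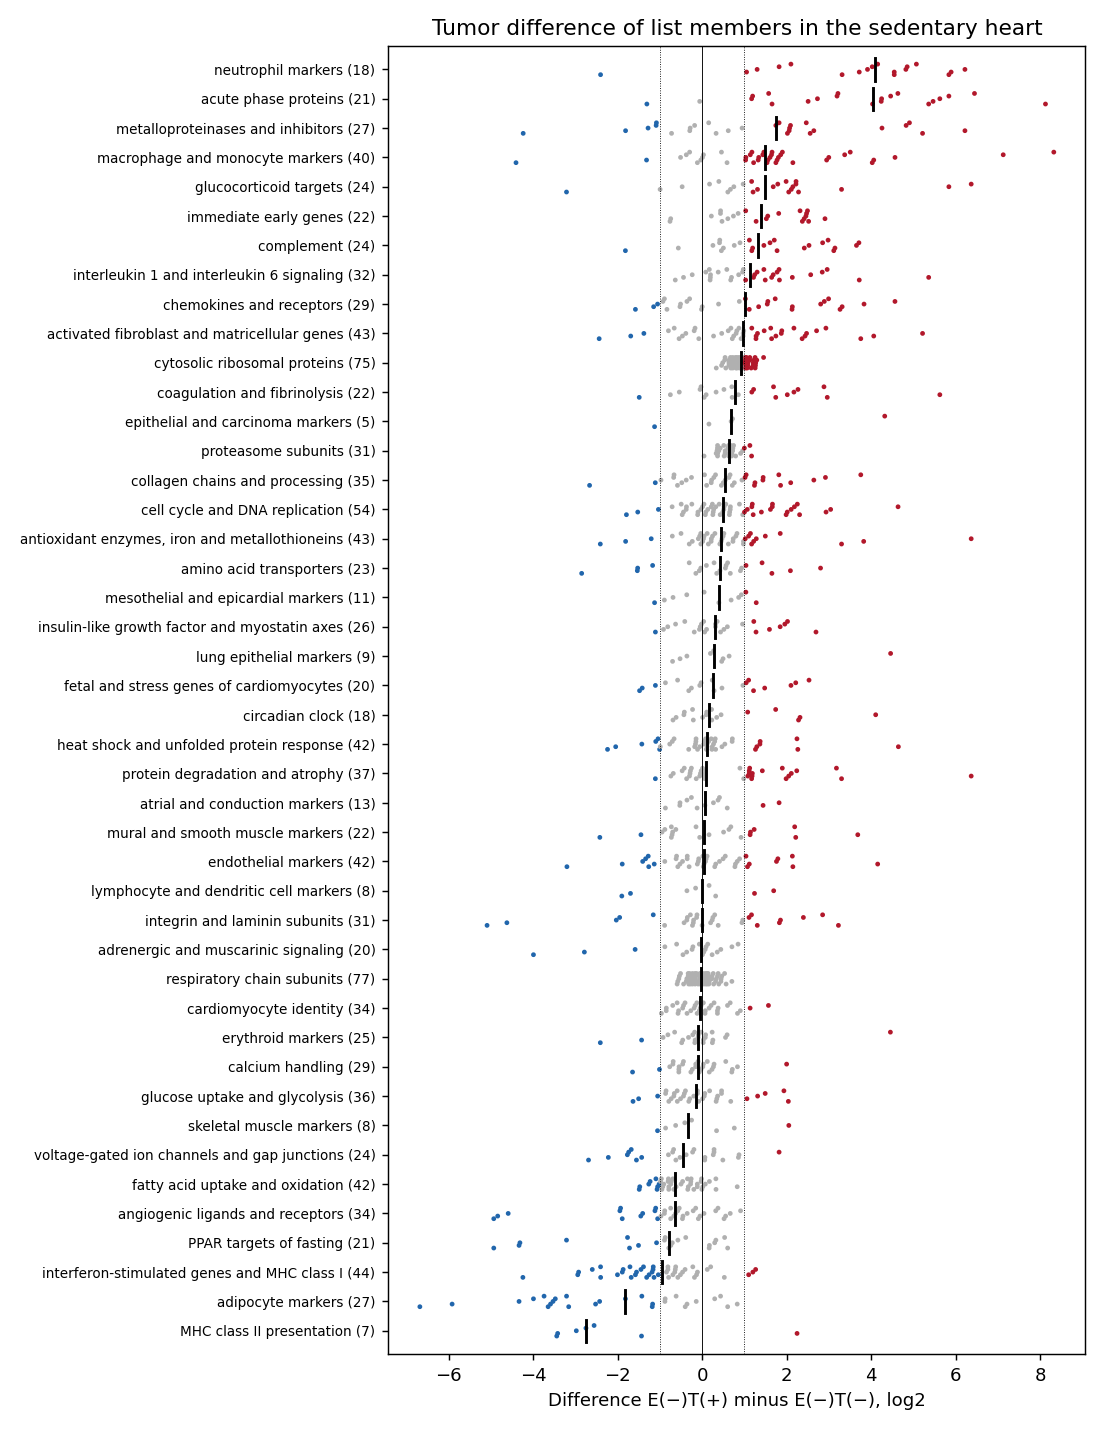
Log2 difference E(−)T(+) minus E(−)T(−) of each list member that passed the minimum, 1 row per list with its number of members in parentheses. Black bars are medians, dotted lines mark 2-fold, and red and blue points are members called up and down. Medians run from −2.75 for MHC class II presentation to 4.09 for neutrophil markers.

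The metallothioneins, small cysteine-rich proteins that bind zinc and copper and are induced by metals, glucocorticoids and interleukin 6, were among the genes with the widest response at high levels. Mt2 had 363 normalized reads without and 30027 with tumor in the sedentary pair and 921 and 33224 in the exercised pair. Its difference in the sedentary pair was 6.37 (6.21 to 6.54). Mt1, its neighbor on the chromosome, had 3850.0 normalized reads without and 37928 with tumor in the sedentary pair and 5303 and 52973 in the exercised pair, a difference of 3.3 (3.25 to 3.35). For both genes the 2 libraries with tumor lay far above the 2 without, and the exercised pair differed by 5.17 for Mt2 and 3.32 for Mt1. The promoters of both genes are shown because the pair moved together in both comparisons. They are RefSeq sequences that run from upstream of the start to 50 bases past it, on the plus strand of GRCm38.p6. Their positions are chr8:94178839-94179138 for Mt1 and chr8:94172368-94172667 for Mt2. Capitals mark matches on either strand to TGCNCNC, a loose form of the core of the metal response element.
Mt1: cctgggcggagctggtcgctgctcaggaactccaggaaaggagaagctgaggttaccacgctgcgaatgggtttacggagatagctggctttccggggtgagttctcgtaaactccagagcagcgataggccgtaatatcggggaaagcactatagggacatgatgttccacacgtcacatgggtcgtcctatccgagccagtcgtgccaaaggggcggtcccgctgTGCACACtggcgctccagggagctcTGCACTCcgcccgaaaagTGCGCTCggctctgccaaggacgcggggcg
Mt2: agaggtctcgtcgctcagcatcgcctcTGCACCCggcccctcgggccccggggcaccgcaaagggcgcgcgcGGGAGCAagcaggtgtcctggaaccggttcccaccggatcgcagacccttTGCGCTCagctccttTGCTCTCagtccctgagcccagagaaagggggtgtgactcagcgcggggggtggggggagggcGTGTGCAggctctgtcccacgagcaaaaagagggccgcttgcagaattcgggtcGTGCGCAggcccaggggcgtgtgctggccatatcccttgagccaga
The Mt1 promoter holds 3 such matches and the Mt2 promoter 6. Of all 32851 promoters of the same length, 51.0% hold at least 1 match, 7.10% at least 3 and 0.23% at least 6. These letters describe the promoters and do not show that a factor bound them.

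Many other genes known to respond to glucocorticoids were also upregulated. Of 24 members of a glucocorticoid target list, Mt1 and Mt2 included, 15 were upregulated and 1 was downregulated, with a median of 1.5. Fkbp5, a chaperone that dampens the glucocorticoid receptor, had 189 normalized reads without and 887 with tumor in the sedentary pair and 198 and 477 in the exercised pair, a difference of 2.22 (1.99 to 2.48). Sgk1, a kinase of salt and glucose handling, had 228 normalized reads without and 1070.2 with tumor in the sedentary pair and 353 and 1608 in the exercised pair, a difference of 2.22 (2.01 to 2.45). Both genes were higher in each library with tumor than in either without. Cebpd, a transcription factor of the acute phase, differed by 2.05 (1.88 to 2.23), and Ddit4, an inhibitor of mTOR, by 2.11 (2.0 to 2.23). Tsc22d3, another classic target, had 951 reads without and 1968 with tumor and did not reach 2-fold at 0.67 (0.56 to 0.78). The receptor itself, Nr3c1, stood just short of 2-fold lower, with 456 reads without and 297 with tumor and a difference of −0.99 (−1.21 to −0.78). The 1 downregulated member was Pdk4, at −3.21 (−4.04 to −2.57).

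Genes of heme and iron handling were called in both directions. Hmox1, which breaks down heme, had 18.6 normalized reads without and 277 with tumor in the sedentary pair and 36.9 and 93 in the exercised pair, so that E(−)T(+) was the highest of the 4 libraries, at a difference of 3.82 (3.19 to 4.74). Fth1, the heavy chain of the iron store ferritin, differed by 1.22 (1.19 to 1.25). The receptor for iron uptake, Tfrc, went the other way with 448 normalized reads without and 83.6 with tumor in the sedentary pair and 566 and 309 in the exercised pair, a difference of −2.41 (−2.76 to −2.09). Slc40a1, the iron exporter ferroportin, differed by −1.2 (−1.74 to −0.71). Among the antioxidant enzymes, Nqo1 differed by 1.85 (1.62 to 2.1), the glutathione synthesis gene Gclc by 1.14 (0.73 to 1.6) and the secreted peroxidase Gpx3 by 1.5 (1.43 to 1.56). Of the whole list of antioxidant, iron and metallothionein genes, 11 were upregulated and 3 were downregulated out of 43.

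Acute phase proteins are mainly secreted by the liver in inflammation, and transcripts of most of those listed were higher in E(−)T(+). Which cells these transcripts came from was not tested. Of 28 listed, 21 passed the minimum, and 19 were upregulated and 1 was downregulated. The median was 4.03, or 2.99 with the 6 members that had 0 reads in E(−)T(−) set to their lower bound, and 2.51 over the 9 members with 16 normalized reads in both libraries. Lrg1, a leucine-rich glycoprotein of the acute phase, had 588 normalized reads without and 3354 with tumor in the sedentary pair and 574 and 2568 in the exercised pair, a difference of 2.51 (2.38 to 2.65). Haptoglobin, Hp, which captures free hemoglobin, had 54.2 normalized reads without and 504 with tumor in the sedentary pair and 56.8 and 1008 in the exercised pair, with both libraries with tumor above both without. Lbp, which presents bacterial lipopolysaccharide, differed by 2.73 (2.36 to 3.16), and Itih4, a heavy chain of the inter-alpha-trypsin inhibitors, by 4.46 (3.55 to 6.16). Ptx3, a pentraxin made at the site of inflammation, had 2 reads without and 64 with tumor, a difference of 4.03 (2.71 to 7.7).

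Several of these genes had no read in the healthy heart. Fgb, the fibrinogen beta chain, had 0 reads without and 66 with tumor, at least 16.9-fold higher. Il1rn, the interleukin 1 receptor antagonist, had 0 and 52 reads, at least 13.3-fold higher. Saa1 and Saa2, with 23 and 24 reads against 0, are near-identical copies whose reads may have been split. The same holds for the Serpina3 family, of which Serpina3n had 84 normalized reads without and 7408 with tumor in the sedentary pair and 135 and 2479 in the exercised pair. Orm1, an acute phase glycoprotein, was the 1 member called down, on 24 reads without and 12 with tumor, and its difference in the exercised pair was 2.42.

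The promoter of Serpina3n is shown as that of the acute phase gene with the most reads in E(−)T(+), at chr12:104406458-104406757 on the plus strand of GRCm38.p6, with matches to GGG and CC set 5 bases apart, a loose form of the NF-kB site, in capitals.
Serpina3n: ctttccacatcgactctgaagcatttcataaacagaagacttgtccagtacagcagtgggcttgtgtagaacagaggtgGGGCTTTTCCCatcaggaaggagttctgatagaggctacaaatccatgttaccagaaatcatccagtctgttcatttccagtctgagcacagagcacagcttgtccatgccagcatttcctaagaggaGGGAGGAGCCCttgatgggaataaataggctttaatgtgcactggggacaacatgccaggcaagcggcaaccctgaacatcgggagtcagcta
It holds 4 matches, overlapping in pairs, when both strands are read. Of the 19 acute phase genes called up, 15 have promoters in the RefSeq set, and 12 of the 15 hold a match, 80%, against 53.5% of all 27025 genes with a promoter there. The STAT letters TTCNNNGAA were present in 3 of the 15, 20%, against 9.55%. No FoxO letters, GTAAACA, were found in these 15 windows, and 4.05% of all genes hold them.

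Several receptors and feedback regulators of interleukin 1 and interleukin 6, which drive the acute phase, were upregulated. Of 32 members, 17 were upregulated and none was downregulated. Socs3, which is induced by STAT3 and shuts off its receptor, had 87.4 normalized reads without and 687 with tumor in the sedentary pair and 219.6 and 1529 in the exercised pair, a difference of 2.96 (2.64 to 3.34). The decoy receptor Il1r2 differed by 3.72 (2.64 to 5.96), on 4 reads without and 86 with tumor. Il33, an alarmin of stromal cells, had 108 normalized reads without and 646 with tumor in the sedentary pair and 64.9 and 239.5 in the exercised pair, a difference of 2.57 (2.27 to 2.91). Osmr, the receptor for oncostatin M, differed by 1.65 (1.29 to 2.04), and Il1r1, the signaling receptor of interleukin 1, by 1.77 (1.27 to 2.38). Stat3 itself did not reach 2-fold, with 2206 reads without and 5638 with tumor and a difference of 0.97 (0.9 to 1.05). Nfkbia, the inhibitor of NF-kB, differed by 1.68 (1.6 to 1.76).

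Chemokines that attract monocytes were among those upregulated. Of 29 chemokines and receptors, 15 were upregulated and 3 were downregulated. Their median was 1.02, or 0.88 over the 19 with 16 normalized reads in both libraries. Ccl6 had 357 normalized reads without and 3436 with tumor in the sedentary pair and 744 and 1509 in the exercised pair, a difference of 3.26 (3.1 to 3.44). Ccl9 differed by 2.89 (2.49 to 3.38) and Ccl2, the main attractant of Ccr2+ monocytes, by 2.99 (2.32 to 3.95). Ccr2 itself was at 30 reads without and 27 with tumor, a difference of −0.51 (−1.34 to 0.27). Cxcl14 differed by 2.81 (2.61 to 3.02). Ccl19, which guides dendritic cells and T cells to lymph nodes, had 0 reads without and 30 with tumor, at least 7.7-fold higher. The downregulated members were Cxcl9, an interferon-gamma target that attracts T cells, at −1.58 (−3.24 to −0.41), the receptor Cxcr4 at −1.05 (−1.61 to −0.55) and the endothelial chemokine Cx3cl1 at −1.15 (−1.74 to −0.61).

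Of 30 neutrophil markers in the table, 18 passed the minimum, and 17 were upregulated and 1 was downregulated. Most of these passed it through E(−)T(+) alone, and the 7 with 16 normalized reads in both libraries had a median of 1.82. The normalized reads of all 30 markers in the table summed to 1038 without and 5286 with tumor in the sedentary pair, and to 1214 and 7758 in the exercised pair. G0s2 alone held 763 of the 1038 and 1022 of the 1214 without tumor, so these sums are not a level of neutrophils. Mmp8, the collagenase of neutrophil granules, had 0 reads in both libraries without tumor, 102 in E(−)T(+) and 169 in E(+)T(+), at least 26.2-fold higher in the sedentary pair. The granule protein Camp had 0 reads without and 44 with tumor, at least 11.3-fold higher. Ngp, another granule protein, had 1 read without and 62 with tumor, a difference of 4.55 (3.04 to 10.9), and Retnlg, a resistin-like protein of neutrophils, had 9 reads without and 197 with tumor. G0s2, which is also an inhibitor of fat breakdown and is expressed in heart and fat, was the 1 member called down, with 763 normalized reads without and 144 with tumor in the sedentary pair and 1022 and 165 in the exercised pair.

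Most macrophage and monocyte markers were also upregulated. Of 40 members, 29 were upregulated and 2 were downregulated, with a median of 1.5, and their normalized reads summed to 8102 without and 19833 with tumor. The scavenger receptor Msr1 had 48.4 normalized reads without and 394 with tumor in the sedentary pair and 62.2 and 190.2 in the exercised pair, a difference of 3.0 (2.57 to 3.52). Vsig4, a complement receptor of resident macrophages, had 33.5 normalized reads without and 265 with tumor in the sedentary pair and 20.6 and 141 in the exercised pair, a difference of 2.95 (2.44 to 3.6). Gpnmb, a marker of lipid-laden and repair macrophages, had 3 reads without and 124 with tumor, a difference of 4.57 (3.41 to 7.29). Cd68, a lysosomal protein of all macrophages, differed by 1.86 (1.52 to 2.24), and C1qb, a chain of the first complement component that macrophages make, by 1.77 (1.61 to 1.95). The exercised pair gave smaller values of 1.6 for Msr1, 0.16 for Gpnmb, 0.26 for Cd68 and 0.27 for C1qb. Vsig4 was far higher with tumor there too, at 20.6 normalized reads without and 141 with tumor. The difference between pairs was not tested. Markers that fell were Retnla, a product of alternatively activated macrophages, with 369.9 normalized reads without and 16.5 with tumor in the sedentary pair and 522 and 78.9 in the exercised pair, and Timd4, a marker of resident macrophages, on 32 reads without and 16 with tumor.

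Many genes of MHC class II and of the interferon response were downregulated. Of 7 MHC class II genes that passed the minimum, 1 was upregulated and 6 were downregulated. H2-DMb1, which helps load peptides, had 107 normalized reads without and 17.4 with tumor in the sedentary pair and 74.2 and 36.2 in the exercised pair, and both libraries with tumor lay below both without. The 1 upregulated member was Ctss, a cathepsin that trims the invariant chain and is also abundant in macrophages, with 345 normalized reads without and 1643 with tumor in the sedentary pair and 411 and 648 in the exercised pair, a difference of 2.25 (2.08 to 2.43). The summed normalized reads of all 12 listed genes in the table, those under the minimum and Ctss included, were 3912 without and 2040 with tumor. Of 44 interferon-stimulated and MHC class I genes, 3 were upregulated and 22 were downregulated, with a median of −0.94 and only 6 of 44 above 0.

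Irf1, a transcription factor induced by interferon, had 533 normalized reads without and 195 with tumor in the sedentary pair and 535 and 202 in the exercised pair, a difference of −1.45 (−1.69 to −1.22). Both libraries with tumor lay below both without. Guanylate-binding proteins, GTPases of cell-autonomous defense, went the same way, with −2.4 (−2.94 to −1.94) for Gbp4, −2.0 (−2.3 to −1.73) for Gbp7 and −1.89 (−2.46 to −1.39) for Gbp3. The antiviral gene Oasl2 differed by −2.92 (−4.24 to −2.02), and Oas2 had 16 reads without and 0 with tumor, at least 6.93-fold lower. Tgtp1 and Tgtp2, near-identical copies, differed by −2.6 and −2.4. The exceptions were Ifi27l2a at 1.27 (1.1 to 1.44), Irf8, a factor of the myeloid lineage, at 1.2 (0.92 to 1.5) and Bst2 at 1.1 (0.45 to 1.85).

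Lymphocyte and dendritic cell markers, read as 1 list, were scarce. Of 34 in the table, 8 passed the minimum, 2 called up and 2 down. Cd28, a costimulatory receptor of T cells, had 25 reads without and 8 with tumor, a difference of −1.9 (−3.38 to −0.83). Cd3d, a chain of the T cell receptor complex that was just inside the minimum, had 14 reads without and 5 with tumor, a difference of −1.7 (−3.69 to −0.31). Jchain, which joins antibodies in plasma cells, had 19 reads without and 60 with tumor, a difference of 1.24 (0.52 to 2.11). The other member called up was the dendritic cell marker Zbtb46, with 15 reads without and 66 with tumor, a difference of 1.694 (0.935 to 2.675).

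Many complement and coagulation genes were upregulated. Of 24 complement genes, 15 were upregulated and 1 was downregulated. C4b had 90.8 normalized reads without and 795 with tumor in the sedentary pair and 172 and 592 in the exercised pair, although its reads cannot be separated with certainty from those of its copy C4a, at 2.98 (2.24 to 4.08). The ficolin Fcna, which starts the lectin pathway, had 48.4 normalized reads without and 646 with tumor in the sedentary pair and 45 and 237 in the exercised pair, a difference of 3.71 (3.3 to 4.23). Factor B, Cfb, of the alternative pathway differed by 2.42 (1.95 to 3.0). The 1 downregulated member was Cfd, also called adipsin, at −1.81 (−1.99 to −1.65), which is made by fat cells. Of 22 coagulation genes, 10 were upregulated and 1 was downregulated. Upregulated were the protein C receptor Procr at 2.96 (2.13 to 4.28), factor V, F5, at 2.27 (1.8 to 2.83), and the protease inhibitor Serpine2 at 2.02 (1.88 to 2.16). Procr had 10.6 normalized reads without and 89.3 with tumor in the sedentary pair and 74.3 and 53.6 in the exercised pair. In the exercised pair Procr differed by −0.46 and F5 by 1.03. The median of the coagulation list was 0.78 in the sedentary and 0.069 in the exercised pair.

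Few genes of the contractile apparatus were called. Of 34 cardiomyocyte identity genes, 2 were upregulated and none was downregulated, with a median of −0.056. The 2 upregulated genes were Tcap, which caps titin at the Z-disc, with 4675 normalized reads without and 13882 with tumor in the sedentary pair and 2498 and 10469 in the exercised pair, and Des, the muscle intermediate filament, with 3439 normalized reads without and 7558 with tumor in the sedentary pair and 3589.6 and 6959.6 in the exercised pair. Des did not reach 2-fold when reads were scaled to the library total, at 0.98. Cardiac myosin Myh6 had 29330 reads without and 44181 with tumor, a difference of 0.21 (0.19 to 0.23), and the slow isoform Myh7 had 15771 reads without and 19730 with tumor, a difference of −0.055 (−0.085 to −0.025). Csrp3, a Z-disc sensor of stretch, stood at 0.9 (0.86 to 0.95) and the fatty acid binding protein Fabp3 at −0.96 (−0.99 to −0.94), both short of 2-fold.

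Genes that cardiomyocytes switch on under load did not move as a block. Of 20 fetal and stress genes, 7 were upregulated and 3 were downregulated. Ankrd1, a titin-bound stress protein of very high level, had 86534 normalized reads without and 185619.9 with tumor in the sedentary pair and 67705 and 41160.3 in the exercised pair, with E(−)T(+) the highest and E(+)T(+) the lowest of the 4 libraries. Its difference was 1.1 (1.09 to 1.11) in the sedentary pair, 0.95 with reads scaled to the library total, and −0.72 in the exercised pair. Nppb, the B-type natriuretic peptide that ventricles release on stretch, had 665 normalized reads without and 1547 with tumor in the sedentary pair and 845 and 553 in the exercised pair, a difference of 1.22 (1.08 to 1.36). Nppa, the atrial natriuretic peptide, had 12791 normalized reads without and 7008 with tumor in the sedentary pair and 14223 and 18832 in the exercised pair and did not reach 2-fold, at −0.87 (−0.91 to −0.83). Clu, a secreted chaperone, had 2468 normalized reads without and 14262 with tumor in the sedentary pair and 3109.6 and 8545 in the exercised pair, a difference of 2.53 (2.47 to 2.6). Fhl1, a stretch-related LIM protein, differed by 2.22 (2.07 to 2.37), Xirp1, of the intercalated disc, by 2.1 (1.9 to 2.32), and Rcan1, a read-out of calcineurin, by 1.48 (1.36 to 1.6). Downward were skeletal alpha-actin Acta1, with 14562 normalized reads without and 5219.6 with tumor in the sedentary pair and 16247 and 4711 in the exercised pair, and Gdf15, a stress hormone that acts on appetite, on 102 reads without and 61 with tumor.

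Several ion channel subunits were lower with tumor. Of 24 members of the channel list, 1 was upregulated and 7 were downregulated, and the median was −0.45. Kcnj2, the main inward rectifier that holds the resting potential of ventricular cells, had 129 normalized reads without and 19.2 with tumor in the sedentary pair and 66.9 and 65.6 in the exercised pair. Its difference was −2.69 (−3.47 to −2.07) in the sedentary pair, while the exercised pair gave −0.028. Kcnip2, the auxiliary subunit of the transient outward current, had 3928 normalized reads without and 1337 with tumor in the sedentary pair and 4344 and 2756 in the exercised pair, a difference of −1.55 (−1.64 to −1.47). It carried the most reads of the 7 downregulated members, and E(−)T(+) was the lowest of the 4 libraries. Hcn2, a pacemaker channel, differed by −2.22 (−3.11 to −1.51), Kcna5, of the ultrarapid potassium current, by −1.74 (−2.34 to −1.21), and Kcne1, the partner of Kcnq1, by −1.68 (−2.2 to −1.21). The sodium channel beta subunit Scn4b differed by −1.43 (−1.89 to −1.01). In contrast, Kcnq1 had 112 reads without and 265 with tumor and stood at 0.86 (0.54 to 1.2), above 0 and short of 2-fold. The gap junction protein Gja1 stood at −0.19 (−0.28 to −0.1).

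Calcium handling showed few calls. Of 29 members, 1 was upregulated and 2 were downregulated. Fkbp1b, which steadies the ryanodine receptor, had 16 reads without and 87 with tumor, a difference of 2.0 (1.28 to 2.93), and the receptor Ryr2 had 3748 reads without and 8701 with tumor, a difference of 0.84 (0.78 to 0.89). The calcium pump Atp2a2 stood at 0.28 (0.26 to 0.31) and its brake Pln at −0.066 (−0.085 to −0.047). Of 20 genes of adrenergic and muscarinic signaling, 3 were downregulated and none was upregulated. The main cardiac receptor, Adrb1, had 152 normalized reads without and 50.1 with tumor in the sedentary pair and 187 and 72.3 in the exercised pair, a difference of −1.58 (−2.07 to −1.14). Rgs4, which limits signaling of G proteins, had 424 normalized reads without and 60.6 with tumor in the sedentary pair and 455 and 168 in the exercised pair, a difference of −2.79 (−3.19 to −2.43). Both were lower in each library with tumor than in either without. Adrb3, a receptor that fat cells use, had 36 reads without and 2 with tumor, a difference of −3.99 (−7.65 to −2.59), and is also on the list of adipocyte markers.

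**Figure D3:**
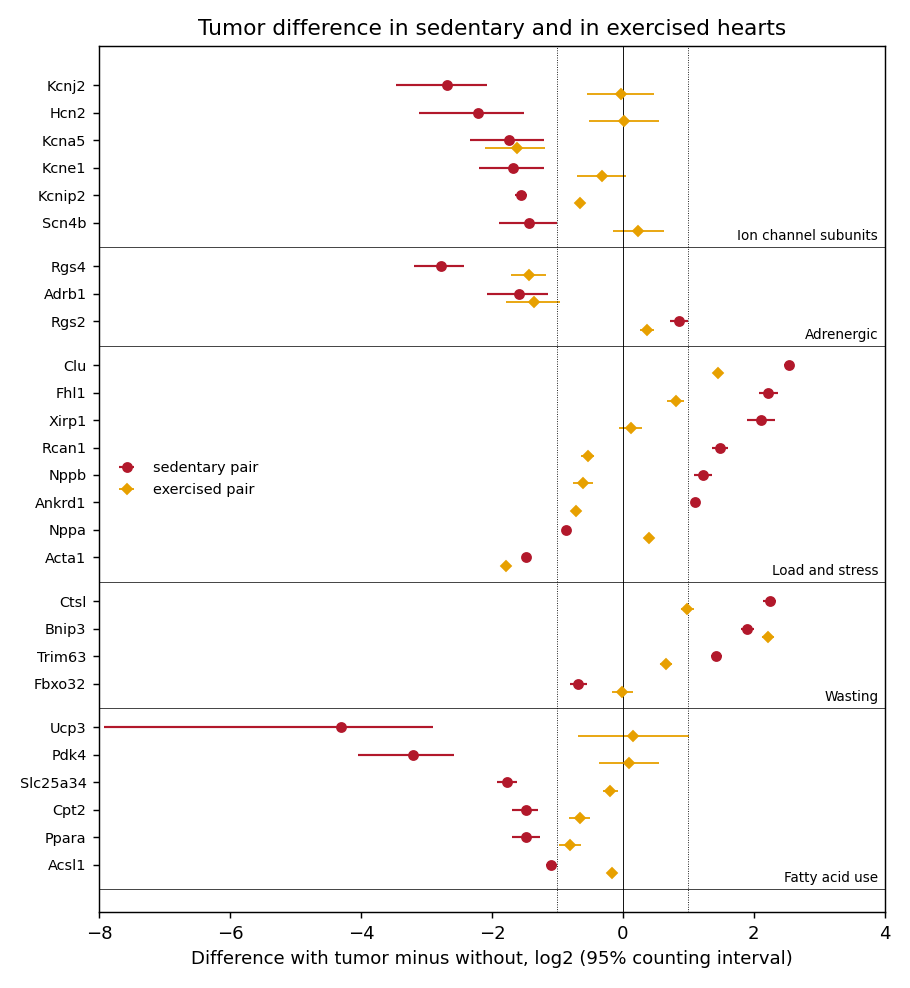
Log2 difference of selected genes with tumor minus without (x axis), as red circles for the sedentary pair and orange diamonds for the exercised pair. Lines are 95% counting intervals and dotted lines mark 2-fold. In the sedentary pair Kcnj2 lies at −2.69 and Clu at 2.53, and in the exercised pair at −0.028 and 1.46.

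Genes of protein breakdown did not move as a block either. Of 37 members of a degradation and atrophy list, 16 were upregulated and 1 was downregulated, although the median was only 0.081 and turned to −0.07 with reads scaled to the library total. The list also holds genes that do not themselves break down protein, among them Mt1, Mt2, Gadd45g and Ddit4, all upregulated. Mt1 and Mt2 count as well in the glucocorticoid list and in the antioxidant, iron and metallothionein list. The lysosomal protease Ctsl had 1049 normalized reads without and 4959 with tumor in the sedentary pair and 1154 and 2279 in the exercised pair, a difference of 2.24 (2.14 to 2.34). Bnip3, a mitochondrial receptor of autophagy, had 1088 normalized reads without and 4058 with tumor in the sedentary pair and 1005 and 4678 in the exercised pair, a difference of 1.9 (1.8 to 2.0). Gadd45g, a stress sensor, differed by 3.18 (2.9 to 3.49), the autophagy adaptor Sqstm1 by 1.13 (1.05 to 1.2) and Map1lc3a, of the autophagosome membrane, by 1.18 (1.12 to 1.25). The best known ubiquitin ligases of muscle atrophy did not move together. Trim63, or MuRF1, had 1639.6 normalized reads without and 4404 with tumor in the sedentary pair and 1461 and 2299.9 in the exercised pair, a difference of 1.43 (1.34 to 1.51), while Fbxo32, or atrogin-1, had 1228 normalized reads without and 765 with tumor in the sedentary pair and 634 and 629 in the exercised pair, a difference of −0.68 (−0.81 to −0.55). Klf15, a glucocorticoid-induced factor of muscle, differed by 1.17 (0.85 to 1.52). Foxo1, a driver of both ligases, stood at −0.42 (−0.64 to −0.21). Of the 13 upregulated members of this list with a RefSeq promoter, 1 held the FoxO letters, none the STAT letters and 10 the NF-kB letters. Of all genes with a promoter there, 4.05%, 9.55% and 53.5% hold these letters.

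All 31 proteasome subunits had a difference above 0, the lowest at 0.046, where the sign can depend on the scaling. Their median was 0.63, and 0.48 with reads scaled to the library total, but 3 were upregulated and none was downregulated. Psmd4, a ubiquitin receptor of the proteasome cap, had 2009 normalized reads without and 4525 with tumor in the sedentary pair and 1856 and 3742 in the exercised pair, a difference of 1.17 (1.09 to 1.25). Psmc1, an ATPase of the cap, differed by 1.13 (1.02 to 1.24), and by 0.98 with reads scaled to the library total. The cytosolic ribosomal proteins had all 75 members above 0, a median of 0.93, and 0.78 under library total scaling. Of these, 23 were upregulated and none was downregulated. Rpl10a, of the large subunit, had 1519 normalized reads without and 3662 with tumor in the sedentary pair and 1759 and 2554 in the exercised pair, and Rps27a, of the small subunit, which is made as a fusion with ubiquitin, had 2246 normalized reads without and 5366 with tumor in the sedentary pair and 2355 and 3151 in the exercised pair. Both genes were highest in E(−)T(+). Ribosomal proteins have many processed copies in the genome, and how reads were shared with these is not given in the sources used here.

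Genes of growth factor signaling and amino acid supply were called in both directions. Of 26 members of the insulin-like growth factor and myostatin list, 7 were upregulated and 1 was downregulated. Igf1 had 362 normalized reads without and 1096 with tumor in the sedentary pair and 444 and 559 in the exercised pair, a difference of 1.59 (1.42 to 1.78), and its binding protein Igfbp4 had 1404 normalized reads without and 5456 with tumor in the sedentary pair and 1683 and 2633 in the exercised pair, a difference of 1.96 (1.87 to 2.05). Fstl3, an inhibitor of activin and myostatin, differed by 1.85 (1.58 to 2.14), and Fst, another, by 2.69 (1.51 to 4.92) on 4 reads without and 41 with tumor. Slc3a2, the heavy chain shared by several amino acid transporters, had 489.8 normalized reads without and 2089 with tumor in the sedentary pair and 939 and 1991 in the exercised pair, a difference of 2.09 (1.94 to 2.25), and its light chain Slc7a6 differed by 2.8 (1.87 to 4.35). Slc1a3, a glutamate transporter, differed by −2.85 (−4.09 to −1.99). On the list of heat shock and the unfolded protein response, Atf4, a transcription factor of the amino acid response, stood at 1.29 (1.19 to 1.41), the serine synthesis enzyme Psat1 at 2.27 (1.62 to 3.11) and Chac1, which degrades glutathione, at 4.64 (3.14 to 10.99) on 1 read without and 66 with tumor.

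Several transcripts of fatty acid use were downregulated. Of 42 genes of fatty acid uptake and oxidation, 8 were downregulated and none was upregulated, with a median of −0.64 and 6 members above 0. Ppara, the receptor that drives this program, had 634 normalized reads without and 227 with tumor in the sedentary pair and 784 and 447 in the exercised pair, a difference of −1.48 (−1.7 to −1.26). Cpt2, which rebuilds acyl-CoA inside mitochondria, had 746 normalized reads without and 265 with tumor in the sedentary pair and 813 and 513 in the exercised pair, a difference of −1.49 (−1.69 to −1.29). Both were lowest in E(−)T(+). Acsl1, which activates long-chain fatty acids, differed by −1.09 (−1.18 to −1.01), Hadhb, of the trifunctional protein, by −1.02 (−1.1 to −0.93), and Mlycd, which removes malonyl-CoA, by −1.07 (−1.28 to −0.86). The carnitine transferase Cpt1b stood at −0.35 (−0.45 to −0.24) and Lpl, which releases fatty acids from lipoproteins, at 0.83 (0.81 to 0.85), both short of 2-fold.

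Of 21 targets of PPAR receptors that fasting normally induces, 8 were downregulated and none was upregulated. Pdk4, which blocks entry of pyruvate into the mitochondrion, had 161 normalized reads without and 16.5 with tumor in the sedentary pair and 77.7 and 83.1 in the exercised pair, a difference of −3.21 (−4.04 to −2.57). Ucp3, a mitochondrial carrier, had 44 reads without and 2 with tumor, a difference of −4.31 (−7.93 to −2.9). The mitochondrial carrier Slc25a34 had 1494 normalized reads without and 439 with tumor in the sedentary pair and 1410.5 and 1235 in the exercised pair, a difference of −1.76 (−1.92 to −1.62). In the exercised pair these genes differed by 0.095, 0.16 and −0.19. The list median was −0.79, and the same over the 17 members that are on no list of other cells. For fatty acid genes the median over the 40 such members was −0.68. Of 36 genes of glucose uptake and glycolysis, 5 were upregulated and 3 were downregulated. The glucose transporter Slc2a1 differed by 1.31 (0.94 to 1.72), and Pfkfb3, which speeds glycolysis, by 1.49 (1.08 to 1.96), while Pfkfb2, its main cardiac relative, differed by −1.64 (−2.08 to −1.23). None of the 77 respiratory chain subunits reached 2-fold, and their median was −0.035.

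Many adipocyte markers fell in the same comparison. Of 27, 17 were downregulated and none was upregulated, with a median of −1.81, or −0.88 over the 18 with 16 normalized reads in both libraries. Plin1, which coats the fat droplet, had 52 reads without and 0 with tumor in the sedentary pair and 16 and 76 in the exercised pair, at least 22.5-fold lower with tumor in sedentary mice. Adipoq, the fat hormone adiponectin, had 363 normalized reads without and 66.8 with tumor in the sedentary pair and 70.4 and 389 in the exercised pair, a difference of −2.42 (−2.82 to −2.07). Fatty acid synthase, Fasn, had 1869 normalized reads without and 161 with tumor in the sedentary pair and 379 and 159.9 in the exercised pair, a difference of −3.53 (−3.76 to −3.31), and the desaturase Scd1 had 3625 normalized reads without and 289 with tumor in the sedentary pair and 422 and 323 in the exercised pair. For Fasn and Scd1 the healthy sedentary heart was the highest library, and E(+)T(−) also lay well below it. Over all 30 listed markers, those under the minimum included, normalized reads summed to 69633 without and 79218 with tumor in the sedentary pair. In the exercised pair the sums were 54048 and 75448. Most of these reads came from Lpl and Fabp4, which muscle and endothelial cells also express. The amount of fat on each heart was not recorded in the sources used here, and its part in these values was not tested.

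**Figure D4:**
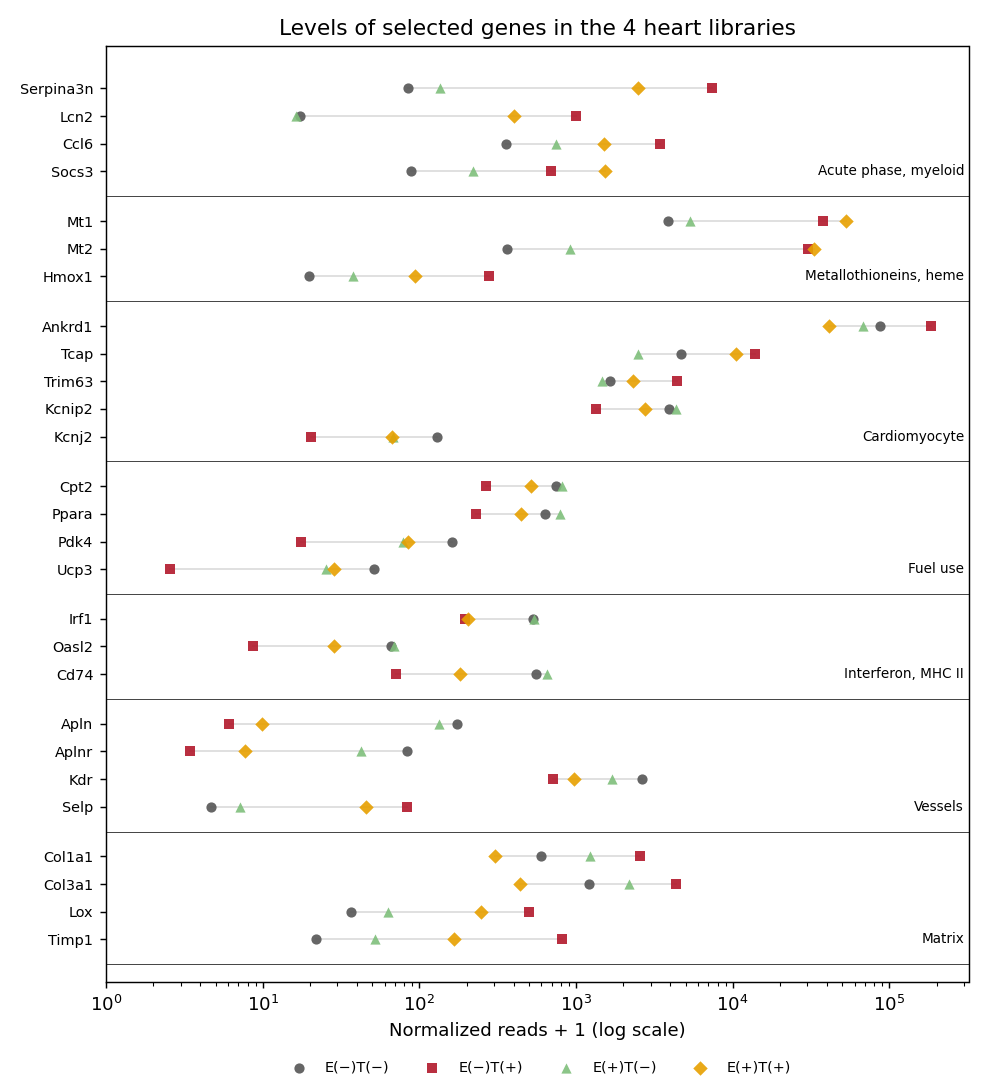
Normalized reads + 1 (x axis, log scale) of selected genes in the 4 heart libraries, 1 symbol per library, grouped by role. E(−)T(+) is the highest library for Serpina3n, Hmox1, Ankrd1 and Timp1, and the lowest for Kcnip2, Pdk4 and Kdr.

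Among vessel genes, receptors and ligands of angiogenesis were called only downward, while Selp and Icam1, which bind leukocytes, were upregulated. Of 34 angiogenic ligands and receptors, 11 were downregulated and none was upregulated. Kdr, the main receptor for vascular endothelial growth factor, had 2631 normalized reads without and 709 with tumor in the sedentary pair and 1707 and 967 in the exercised pair, a difference of −1.89 (−2.01 to −1.77). Its co-receptor Nrp1 had 4550.1 normalized reads without and 1194 with tumor in the sedentary pair and 3942 and 1653 in the exercised pair, a difference of −1.93 (−2.02 to −1.84), and the ligand Vegfa differed by −1.45 (−1.63 to −1.28). Aplnr, the receptor of the peptide apelin, had 81.9 normalized reads without and 2.44 with tumor in the sedentary pair and 41.7 and 6.72 in the exercised pair, a difference of −4.59 (−7.27 to −3.36) on 3 reads with tumor. Dll4, the Notch ligand of tip cells, differed by −1.95 (−2.4 to −1.54). Pan-endothelial genes were split, with Cdh5, the junction protein VE-cadherin, at −1.26 (−1.45 to −1.09) and Pecam1 at 0.55 (0.46 to 0.64). Of 42 endothelial markers, 8 were upregulated and 7 were downregulated. Selp, which tethers leukocytes to the vessel wall, had 3.69 normalized reads without and 82.5 with tumor in the sedentary pair and 6.17 and 44.8 in the exercised pair, a difference of 4.16 (2.98 to 6.88), and Icam1, which binds them firmly, had 58.7 normalized reads without and 206 with tumor in the sedentary pair and 78.6 and 144 in the exercised pair, a difference of 1.79 (1.37 to 2.28). Plvap, of endothelial pores, differed by 1.76 (1.44 to 2.12).

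Several smooth muscle contractile genes were upregulated, with Tagln at 2.19 (1.93 to 2.48), Cnn1 at 2.22 (1.73 to 2.81) and Myh11 at 1.15 (0.96 to 1.34). The exercised pair gave 0.046, −0.71 and −0.5 for the same genes. Tagln had 150 normalized reads without and 691 with tumor in the sedentary pair and 639 and 659 in the exercised pair. Cnn1 had 40.4 and 191 in the sedentary pair and 300 and 184 in the exercised pair. For Tagln and Cnn1, E(−)T(−) was the lowest of the 4 libraries. Acta2 stood at 0.92 (0.83 to 1.01), and of 22 mural markers, 6 were upregulated and 2 were downregulated. The pericyte gene Pdgfrb stood at −0.14 (−0.4 to 0.11).

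Of 35 collagen genes and their processing enzymes, 12 were upregulated and 2 were downregulated, with a median of 0.55. Col1a1, a chain of type I collagen, had 599 normalized reads without and 2564 with tumor in the sedentary pair and 1231 and 301 in the exercised pair, a difference of 2.1 (1.96 to 2.24). Col3a1 had 1202 normalized reads without and 4359 with tumor in the sedentary pair and 2180.3 and 439.8 in the exercised pair, a difference of 1.86 (1.76 to 1.96). For both genes E(−)T(+) was the highest library and E(+)T(+) the lowest. Lox, which cross-links collagen, had 35.8 normalized reads without and 496 with tumor in the sedentary pair and 62.2 and 245 in the exercised pair, a difference of 3.75 (3.28 to 4.37). P4ha1, which hydroxylates prolines of collagen, was lower with 283 normalized reads without and 43.8 with tumor in the sedentary pair and 524 and 76.7 in the exercised pair, a difference of −2.66 (−3.15 to −2.24), and the collagen chaperone Serpinh1 differed by −1.11 (−1.28 to −0.94). The basement membrane chain Col4a2 stood at 0.5 (0.4 to 0.6).

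Of 43 genes of activated fibroblasts and the matricellular proteins they secrete, 19 were upregulated and 3 were downregulated. Ctgf, a growth factor of scar formation, had 1951 normalized reads without and 10831 with tumor in the sedentary pair and 3136 and 2448 in the exercised pair, a difference of 2.47 (2.4 to 2.55), and was highest in E(−)T(+). Eln, the core of elastic fibers, differed by 2.37 (2.13 to 2.62), the proteoglycan Vcan by 2.44 (2.17 to 2.74) and the calcification inhibitor Mgp by 1.65 (1.6 to 1.69). Tnc, a matrix protein of injured heart, had 7 reads without and 78 with tumor, a difference of 2.93 (1.99 to 4.46). Among small proteoglycans, Fmod differed by −2.44 (−3.26 to −1.77) and Ogn by −1.69 (−1.92 to −1.47), whereas Dcn stood at 0.99 (0.96 to 1.01). Periostin, Postn, had 137 reads without and 312 with tumor and did not reach 2-fold, at 0.81 (0.52 to 1.11).

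Of 27 matrix proteases and inhibitors, 14 were upregulated and 5 were downregulated, with a median of 1.75, or 0.95 without the 2 that are also neutrophil markers and 0.62 over the 21 with 16 normalized reads in both libraries. Mmp3, stromelysin, had 33.5 normalized reads without and 1035 with tumor in the sedentary pair and 88.4 and 340.1 in the exercised pair, a difference of 4.91 (4.43 to 5.54), and the gelatinase Mmp2 had 583 normalized reads without and 2436 with tumor in the sedentary pair and 630.2 and 797 in the exercised pair, a difference of 2.06 (1.93 to 2.2). Adamts4, which cuts versican, had 2 reads without and 75 with tumor, a difference of 4.26 (2.95 to 7.92). Timp4, the inhibitor found mainly in heart, was lower with 1321 normalized reads without and 624 with tumor in the sedentary pair and 742 and 968 in the exercised pair, a difference of −1.08 (−1.22 to −0.94). Among integrins, Itgb6 had 29 reads without and 0 with tumor, at least 12.6-fold lower, and Itga11, a collagen receptor of fibroblasts, had 21 and 0, at least 9.1-fold lower. Itga8, of mesenchymal cells, was higher on 7 reads without and 97 with tumor, and Itgam and Itgb2, which together form the integrin of myeloid cells, differed by 2.85 (2.21 to 3.74) and 2.4 (1.75 to 3.26).

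Immediate early genes, which respond within minutes to stress and handling, were upregulated in 13 of 22 members and downregulated in none, with 20 of them above 0. Atf3 had 59.9 normalized reads without and 348 with tumor in the sedentary pair and 293 and 568 in the exercised pair, and Btg2 had 238 normalized reads without and 1343 with tumor in the sedentary pair and 449 and 588 in the exercised pair. Junb had 187 normalized reads without and 937 with tumor in the sedentary pair and 423 and 1532 in the exercised pair. Junb was higher in both libraries with tumor, whereas for Btg2 E(−)T(+) stood apart from the other 3 libraries. Of 18 clock genes, 5 were upregulated and none was downregulated. Nr1d1, a repressor of the clock, had 103 normalized reads without and 519.6 with tumor in the sedentary pair and 113 and 629.8 in the exercised pair, a difference of 2.32 (2.01 to 2.67), and Ciart, another repressor, had 3 reads without and 90 with tumor, a difference of 4.11 (2.94 to 6.83). Arntl, the driver of the clock, stood at −0.43 (−1.05 to 0.17) and Dbp, its output, at −0.21 (−0.53 to 0.11). The hour at which each heart was taken is not given in the sources used here, and its part in these values was not tested.

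Of 42 genes of heat shock and the unfolded protein response, 7 were upregulated and 6 were downregulated. Hspb7, a small heat shock protein of heart, differed by 1.37 (1.32 to 1.43). Hsph1 had 341 normalized reads without and 81.8 with tumor in the sedentary pair and 1533 and 149 in the exercised pair, a difference of −2.04 (−2.4 to −1.71), with E(+)T(−) the highest library. Hspa1a and Hspa1b, near-identical copies, differed by −1.43 and −2.24. Of 54 cell cycle genes, 18 were upregulated and 3 were downregulated. Their median was 0.50, or 0.26 over the 39 with 16 normalized reads in both libraries. Birc5, of the mitotic spindle, had 12 reads without and 139 with tumor, a difference of 3.04 (2.31 to 4.14), Top2a, which untangles DNA, differed by 1.67 (1.23 to 2.17) and Cdk1 by 2.18 (1.57 to 2.98). Mki67 stood at 0.96 (0.42 to 1.59) in the sedentary pair and 3.78 in the exercised pair. Hmga2, a chromatin protein of embryonic and tumor cells, had 5.99 normalized reads without and 173 with tumor in the sedentary pair and 8.87 and 15.5 in the exercised pair, so that E(−)T(+) stood far above the other 3 libraries.

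Markers of other tissues were read for the same pair. Of 20 epithelial and carcinoma markers, 15 did not reach 16 normalized reads in either library, among them Epcam, Cdh1, Cdx2 and Vil1. Krt20, a keratin of intestinal epithelium, had 2 reads without and 78 with tumor, a difference of 4.32 (3.01 to 7.98), and 3.17 in the exercised pair. Krt19 had 58 reads without and 34 with tumor, a difference of −1.12 (−1.8 to −0.51). Krt18 and Krt8, keratins of simple epithelia, stood at 0.72 (0.092 to 1.41) and 0.69 (−0.19 to 1.67). Lung epithelial markers gave a median of 0.27 in the sedentary pair and 3.23 in the exercised pair. The surfactant gene Sftpc had 58 reads without and 87 with tumor, and Scgb3a1, a secretory protein of airways, was the 1 of 9 called up, with 16.3 normalized reads without and 381 with tumor in the sedentary pair and 10.7 and 138 in the exercised pair. Erythroid markers had a median of −0.095 in the sedentary pair and 2.76 in the exercised pair, and atrial markers one of 0.067. Of 21 skeletal muscle markers, 8 passed the minimum, with Tnni2, a fast troponin, at 2.05 (1.04 to 3.61) and Myl1, a fast myosin light chain, at −1.05 (−1.39 to −0.73) as the members called. Of 11 mesothelial and epicardial markers, 2 were upregulated and 1 was downregulated, with Msln at 1.28 (0.84 to 1.77). The part of any of these cells in the results was not tested.

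Some of the widest differences fell outside the lists. Among genes that reached 100 normalized reads, Crabp1, a retinoic acid binding protein, had 4.85 normalized reads without and 301 with tumor in the sedentary pair and 13.4 and 60.3 in the exercised pair, a difference of 5.69 (4.66 to 7.92). BC100530, a member of the stefin family whose near-identical copies make its reads uncertain, had 1 read without and 187 with tumor, and Cd300lf, a myeloid receptor, had 1 read without and 114 with tumor, a difference of 5.43 (3.95 to 11.77). Downward, Chek2, a kinase of the DNA damage checkpoint, had 138 normalized reads without and 5.96 with tumor in the sedentary pair and 81.5 and 19.9 in the exercised pair, a difference of −4.32 (−5.83 to −3.4). Pcdh12, an endothelial cadherin, had 119.6 normalized reads without and 5.08 with tumor in the sedentary pair and 47.9 and 17.6 in the exercised pair, a difference of −4.31 (−5.99 to −3.34), and Ces1d, a carboxylesterase of fat and heart, had 323 normalized reads without and 20.9 with tumor in the sedentary pair and 293 and 128 in the exercised pair, a difference of −3.88 (−4.6 to −3.33). Cflar, an inhibitor of death receptor signaling that the study followed in the heart, had 505 normalized reads without and 239 with tumor in the sedentary pair and 573 and 209 in the exercised pair, a difference of −1.08 (−1.3 to −0.86).

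The exercised pair gave a second set of values for the same contrast. Of the 1417 genes upregulated in the sedentary pair, 540, or 38.1%, were also at least 2-fold higher in E(+)T(+) than in E(+)T(−), and 49, or 3.46%, were at least 2-fold lower. Of the 1358 downregulated genes, 447, or 32.9%, were at least 2-fold lower there and 40, or 2.95%, at least 2-fold higher. Among the genes not called in the sedentary pair, 3.99% were at least 2-fold higher and 6.17% at least 2-fold lower in the exercised pair. Both libraries with tumor stood above both without for 1105 of the upregulated genes, 78.0%, against 27.8% of all 12202, a share to which the sedentary pair itself contributes. They stood below both for 1095 of the downregulated genes, 80.6%, against 29.8% of all. E(+)T(+) also differs in its globin reads, and no difference between the pairs was tested.

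By list, the plot of medians in both pairs shows neutrophil markers, acute phase proteins and glucocorticoid targets above 0 in both, and MHC class II and interferon-stimulated genes below 0 in both. Fibroblast genes had medians of 0.97 in the sedentary and −0.38 in the exercised pair, and collagen genes of 0.55 and −0.97. Macrophage markers had medians of 1.5 and 0.15, fatty acid genes of −0.64 and −0.015, and adipocyte markers of −1.81 and 0.34.

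**Figure D5:**
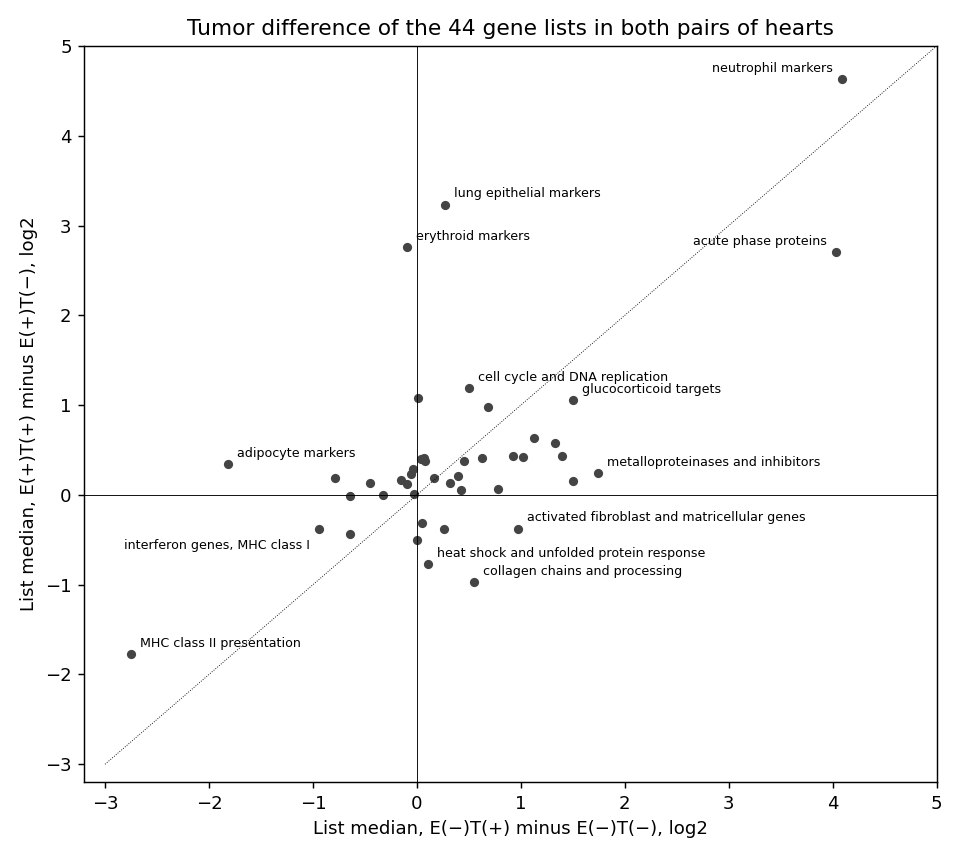
Median log2 difference of each of the 44 gene lists with tumor minus without in the sedentary pair (x axis) and in the exercised pair (y axis), 1 point per list, with the dotted line at equal values. Neutrophil markers lie at 4.09 and 4.63, collagen genes at 0.55 and −0.97, and erythroid markers at −0.095 and 2.76.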

How the data were processed

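RNA of 4 hearts was sequenced from its 3′ ends (QuantSeq 3′) and, per the labels and the study's methods, mapped by the authors to mm10 with Bowtie2 and counted with bedtools (versions not given in the sources used here), then normalized with edgeR. The deposited values are on a log2 scale, and their spacing identifies them as log2 of quantile-adjusted pseudo-counts + 1. Whole reads were recovered by refitting the relative library sizes (0.872, 1.13, 1.11 and 0.914 in the order E(−)T(−), E(−)T(+), E(+)T(−), E(+)T(+)) and a common dispersion of 0.149. Of 25460 values of 5 to 99 reads, 100% came out within 0.1 of a whole read. A normalized read is 2 to the deposited value, minus 1, and 3 reads correspond to between 2.65 and 3.44 of them.

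Genes with at least 16 normalized reads in 1 of the 2 sedentary libraries were kept, and a log2 difference of at least 1 was called. With 1 library per group the sedentary pair alone allows no test, and no model over all 4 libraries was fitted. Intervals are Clopper-Pearson, and PCR copies without molecular identifiers are not independent molecules. The members and the 44 lists were chosen with earlier results of these data known. Named genes are, by rule, up to 5 of each list with the largest difference, the 10 largest rises and falls at 100 normalized reads or more, the 5 most abundant genes of either library and those the study names for the heart. All other genes named were chosen for their known roles after their values were seen, as was the metal response motif. Symbols without a row in the table, such as Ly6g, were not analysed here, and some items are not reported here. Promoters are RefSeq sequences of GRCm38.p6, the assembly of mm10. Near-identical copies (globins, Hspa1a and Hspa1b, Saa1 and Saa2, C4a and C4b, Tgtp1 and Tgtp2, the Serpina3 and stefin families) are uncertain. Alternatives were other scalings, pseudocounts, minimums and thinning of reads. The scripts ran under Python 3.11.15 with pandas 2.3.3, numpy 2.4.6, matplotlib 3.10.9 and scipy 1.17.1, and were tested on simulated data.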

Additional observations from a re-analysis of the deposited data

Results flagged for a closer look

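For 6 of the genes named by rule the pairs pointed in opposite directions, so that the library with tumor lay at least 2-fold on one side of its control in the sedentary pair and at least 2-fold on the other side in the exercised pair. With 1 library per group the difference between the pairs was not tested for any of them. Over all genes, 49 of the 1417 upregulated and 40 of the 1358 downregulated ones were at least 2-fold on the other side in the exercised pair.

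The matrix genes were higher with tumor in the sedentary pair and lower in the exercised pair. Col1a1 differed by 2.1 in the sedentary pair and by −2.03 in the exercised pair. Tnc, a matrix protein of injured tissue, differed by 2.93 and −1.85.

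The fat genes went the other way. Plin1 differed by −5.92 in the sedentary pair, where E(−)T(+) held 0 reads, and by 2.45 in the exercised pair. Retn, the hormone resistin, which mouse fat cells secrete, differed by −3.74 and 1.86. T cell genes with few reads did likewise, Cd28 at −1.9 and 1.49, and Cd3d at −1.7 and 1.31. E(+)T(+) carried 37.3% globin reads, and the part of other cells in these values was not tested.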

How the results depend on the processing

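None of the 183 named genes past 2-fold changed direction under the other scalings, the larger pseudocount or the thinning of reads. These alternatives shift a difference by less than 2-fold for most genes and could hardly reverse one, so this says little about the calls. Other genes were followed only as counts. Scaling to the library total moved the median of all genes to −0.177, and leaving genes over 1% of a library out of the total moved it to −0.172, whereas the trimmed mean of log ratios left it at −0.021. Under these 2 scalings the list medians moved to −0.072 and −0.067 for protein degradation (from 0.081), 0.477 and 0.481 for proteasome subunits (from 0.630), −0.188 and −0.184 for the respiratory chain (from −0.035) and 0.776 and 0.781 for ribosomal proteins (from 0.929). Counts of genes higher and lower were 2656 and 2484 with no minimum, 686 and 638 with a minimum of 100 normalized reads, and 862 and 883 with 16 in both libraries, where the neutrophil median was 1.82 over 7 genes. Of 183 named genes past 2-fold, 7 fell under it in an alternative: Ankrd1, Des, Nr1d2, Nup98, Psmc1, Psmd13 and Tbx18. Leaving out list members that are also markers of other cells, chosen after seeing the data, moved the median of the metalloproteinases from 1.75 to 0.946 and that of adrenergic signaling, near 0, from −0.029 to 0.008. No paired analysis was possible because the sedentary comparison has 1 library per group, which gives 1 pair. Depth limits genes with few reads, and a 2-fold call near 16 normalized reads can lie within counting error.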
